A study of Rattus norvegicus with 6 samples.

Results

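Smooth muscle contractile genes were taken as all non-control probes of the array whose gene name was Myh11, Acta2, Tagln, Cnn1, Smtn, Mylk, Cald1, Rgs5, Pdgfrb or Notch3. The rule found 15 probes of 10 genes among 30367 non-control probes, and all 15 passed the filter on dim probes. Of the 10 members, 7 belong to the contractile apparatus of smooth muscle and 3 (Rgs5, Pdgfrb and Notch3) are genes of mural cells, the smooth muscle cells and pericytes that wrap blood vessels.

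Whole-heart RNA was hybridised to 1 array a sample, with 3 arrays of the AACO group and 3 of the control group. AACO is a preparation that the labels place in a "TCM" group without explaining its letters. Per the labels' protocols it was given daily at 0.386 µg/g for 8 weeks, while controls received the same amount of double-distilled water, and hearts were taken 24 h after the last dose. The series text states that all animals, controls included, had TAC, the usual abbreviation of transverse aortic constriction, an operation that loads the left ventricle. That text calls the animals mice, whereas the labels give Rattus norvegicus and the probes lie on the rat build rn4, so they were treated as rat. No strain, sex or age was given, and no animals without TAC were among the samples. The text says only that different donors were used, and any p-value here covers the spread among these arrays, which may be technical.

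Smooth muscle cells contract when myosin light chain kinase phosphorylates the myosin that pulls on alpha-actin, and calponin, caldesmon and transgelin bind the actin filament. In the heart these proteins are known mainly from the walls of coronary vessels. Alpha-actin and transgelin are also made by activated fibroblasts, so their RNA is not restricted to vessels.

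Sequences are shown for some of the probes, so that the stretch each reads can be seen. The 2 Myh11 probes, the second Smtn probe, 2 Cald1 probes that disagreed with each other and the Rgs5 probe read as follows, 5′ to 3′ in lower case.
Myh11 A_64_P030190: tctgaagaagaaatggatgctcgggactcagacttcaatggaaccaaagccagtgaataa
Myh11 A_64_P137375: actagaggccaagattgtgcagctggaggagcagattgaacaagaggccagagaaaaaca
Smtn A_64_P165703: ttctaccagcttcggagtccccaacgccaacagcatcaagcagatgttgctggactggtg
Cald1 A_44_P276276: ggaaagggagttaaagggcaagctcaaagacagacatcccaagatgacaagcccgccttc
Cald1 A_64_P085846: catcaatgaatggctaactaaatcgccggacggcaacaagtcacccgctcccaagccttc
Rgs5 A_43_P12029: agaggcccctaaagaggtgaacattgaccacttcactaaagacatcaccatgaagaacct

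Per the array files, on rn4 the Myh11 probes lie at chr10:775993-776052 and chr10:769544-770044 on the plus strand. The Smtn probe lies at chr14:84165650-84165709 on the minus strand. The Cald1 probes lie at chr4:62126457-62126516 and chr4:62148325-62148384 on the plus strand, and the Rgs5 probe at chr13:85480542-85482176 on the plus strand. The second Myh11 probe and the Rgs5 probe cover 501 and 1635 bases of the genome with 60 bases of sequence, so each crosses an intron. The probes that stood for Smtn and Cald1, A_64_P069654 and A_64_P085851, are not printed and lie at chr14:84160581-84160640 on the minus strand and chr4:62156739-62156798 on the plus strand. The Acta2 probe has no position in the files.

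Upstream sequence was taken from RefSeq (build GRCr8), whose table held windows for 7 of the 10 members, 8 windows in all because Cald1 had 2. Myh11, Tagln and Pdgfrb had no window, so the search below does not cover them. The CArG box is the site of serum response factor and is known from smooth muscle promoters. It was searched as CC, 6 positions of A or T and GG, a frame that covers both strands, and then with 1 of the 6 positions free. The exact box was in 1.64% of 33469 promoter windows of 300 bases and in 0 of the 8 windows of members. The relaxed box was in 9.42% of all windows and in 1 of the 8, that of Acta2, which held it at 2 places. The 250 bases before the Acta2 start (window chr1:241172454-241172753, minus strand) are shown with the relaxed boxes in capitals, and those of Rgs5 (window chr13:84380827-84381126, plus strand), which held none, below it.
Acta2 upstream: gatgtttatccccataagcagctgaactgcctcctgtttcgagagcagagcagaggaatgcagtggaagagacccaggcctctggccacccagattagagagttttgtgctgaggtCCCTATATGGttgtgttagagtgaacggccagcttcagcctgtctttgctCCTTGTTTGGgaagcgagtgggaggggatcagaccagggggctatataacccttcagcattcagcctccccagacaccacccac
Rgs5 upstream: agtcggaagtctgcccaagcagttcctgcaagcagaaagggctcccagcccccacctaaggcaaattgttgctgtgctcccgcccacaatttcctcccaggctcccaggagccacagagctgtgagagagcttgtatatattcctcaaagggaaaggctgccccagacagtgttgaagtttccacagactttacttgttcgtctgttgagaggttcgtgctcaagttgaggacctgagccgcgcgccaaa

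The boxes CCCTATATGG and CCTTGTTTGG begin 134 and 84 bases before the start of Acta2. These are matches of letters in a window and say nothing of whether a factor bound there.

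Levels are given as log2 of the background-corrected signal minus the 75th percentile of that array, so that 0 is the array's 75th percentile. Levels of different probes cannot be set against each other, and each probe is compared only with itself across arrays. Exceptions are differences between Cald1 probes of an array and the summed levels of marker lists. A summed level is log2 of the sum of the unlogged levels of a list's tested genes, so its brightest probes weigh most. Where a gene had several probes, the brightest on average stood for it. Differences are AACO minus control, tested with limma's moderated test and Benjamini-Hochberg adjustment over 17536 genes, and a gene is said to have risen or fallen only where its adjusted p was under 0.05. In RNA of whole hearts, fewer cells of a type and less RNA per cell cannot be told apart.

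Of the 7 contractile members, Smtn rose in AACO hearts and the other 6 did not pass the test. Of the 10 members 1 rose and 0 fell, while 11.3% of all genes tested passed, 6.32% having risen and 4.94% fallen. By fitted direction alone 7 of the 10 members were higher in AACO hearts, against 54.8% of all genes. Without adjustment, 7 of the 10 members had a p under 0.05, against 30.8% of all genes. With the 75th percentile taken over averaged probes in place of spots, a choice made with results in view, 4 of the 10 had such a p. The number was 2, 5 and 6 when AACO replicate 1, 2 or 3 was left out. It was 6, 2 and 3 when control replicate 1, 2 or 3 was, and 1 with an atrial covariate described further on. Of all 17536 genes, 5402 had such a p as reported. Without AACO replicate 1, 2 or 3 these were 3930, 4040 and 5774 genes. Without control replicate 1, 2 or 3 they were 5004, 4739 and 4373, and with the covariate 2276. The median difference was 0.60 over the contractile members and 0.47 over all 10, against 0.04 over all genes tested. Without AACO replicate 1 these medians were 0.46 over the contractile members and 0.30 over all 10. These are counts and medians of a list chosen with earlier results of these data known, and no test of the list was made.

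**Figure D1:**
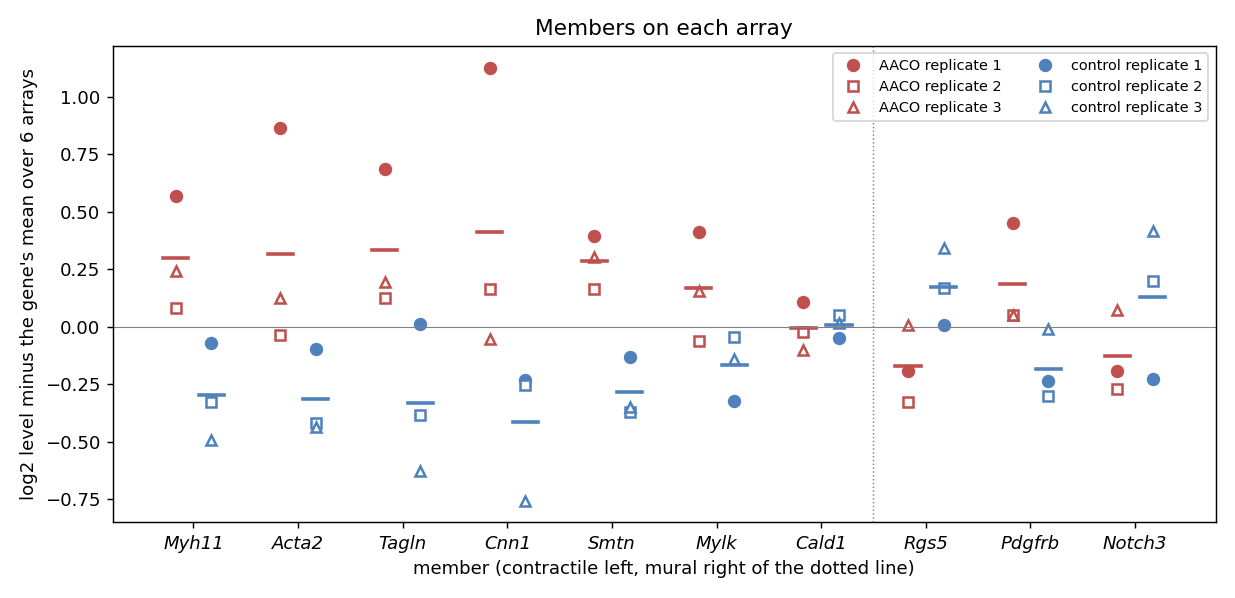
Each point is 1 array: its log2 level minus the gene's mean over the 6 arrays, with AACO arrays left and control arrays right for each member, and a bar at each group mean. AACO replicate 1 is the highest AACO point of all 7 contractile members.

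Smtn encodes smoothelin, an actin-binding protein of contractile smooth muscle. Its level was 4.02, 3.79 and 3.93 on the AACO arrays and 3.49, 3.25 and 3.27 on the control arrays. All 3 AACO arrays lay above all 3 control arrays. The difference was 0.57 ± 0.12 (log2, SE, n = 3 arrays each), a 1.48-fold higher signal, with an adjusted p of 0.0322 in limma. This probe has 1 spot on each array, and the second Smtn probe has 2. The second Smtn probe read 0.21, -0.03 and 0.22 in AACO hearts and -0.34, -0.36 and -0.42 in control hearts, a difference of 0.51 with an adjusted p of 0.0359 over all 20112 probes. The difference in the first probe moved between 0.52 and 0.65 as each array was left out. With AACO replicate 1 left out its adjusted p in limma was 0.106, with AACO replicate 2 it was 0.0816 and with AACO replicate 3 it was 0.0564. Leaving out control replicate 1 gave 0.0367, control replicate 2 gave 0.0790 and control replicate 3 gave 0.0966, so the call was kept in 1 of these 6 fits. In the same order, 2.32%, 1.46%, 12.3%, 8.16%, 6.89% and 3.57% of all genes passed in these fits, against 11.3% as reported.

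Myh11 encodes the smooth muscle myosin heavy chain, the motor of the contractile filament. Its level was 1.52, 1.04 and 1.20 in AACO hearts and 0.88, 0.63 and 0.46 in control hearts, with no overlap. The difference was 0.60 ± 0.17 with an adjusted p of 0.0728 in limma. The other Myh11 probe read -0.66, -1.21 and -1.15 in AACO hearts and -1.60, -1.83 and -1.96 in control hearts, a difference of 0.79. That probe passed the limma fit over all probes, with an adjusted p of 0.0424, where 11.1% of all probes were called.

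Acta2 encodes smooth muscle alpha-actin, the thin-filament partner of that motor. Its level was 0.53, -0.37 and -0.21 in AACO hearts and -0.43, -0.75 and -0.77 in control hearts. The groups did not overlap, but AACO replicate 1 stood well above the other AACO arrays. The difference was 0.63 ± 0.25 (adjusted p = 0.147, limma) and was 0.36 without AACO replicate 1. Actin genes are alike in their coding sequence, and whether this probe reads other actins was not tested.

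Tagln encodes transgelin, an actin-bundling protein. Its level was 1.61, 1.05 and 1.12 in AACO hearts and 0.94, 0.54 and 0.30 in control hearts, with no overlap. The difference was 0.67 ± 0.22 (adjusted p = 0.0991, limma). Without AACO replicate 1 it was 0.49.

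Cnn1 encodes calponin, which binds actin and restrains myosin. Its signal was dim, with levels of -3.55, -4.51 and -4.73 in AACO hearts and -4.91, -4.93 and -5.44 in control hearts. The groups did not overlap, and AACO replicate 3 lay close to control replicate 1. The difference of 0.83 ± 0.33 had the widest interval of the representative probes, 0.04 to 1.61 (adjusted p = 0.148, limma). It was 0.47 without AACO replicate 1 and 0.13 with another background correction (normexp).

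Mylk encodes myosin light chain kinase, which starts contraction. Its level was 1.09, 0.61 and 0.83 in AACO hearts and 0.35, 0.63 and 0.53 in control hearts. The groups overlapped, since AACO replicate 2 lay below control replicate 2. The difference was 0.34 ± 0.15 (adjusted p = 0.188, limma), with a 95% interval of -0.03 to 0.70. Without AACO replicate 1 it was 0.22. The other, dimmer Mylk probe differed by 0.85 (adjusted p = 0.0879 over all probes).

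Cald1 encodes caldesmon, an actin-binding inhibitor of myosin with a smooth muscle and a non-muscle form. Its 3 probes did not move alike. The representative probe, A_64_P085851, read -1.38, -1.51 and -1.59 in AACO hearts and -1.54, -1.44 and -1.48 in control hearts. The difference was -0.01 ± 0.10 (adjusted p = 0.954, limma), with a 95% interval of -0.25 to 0.23. Probe A_64_P085846 differed by 0.06, with an interval of -0.42 to 0.53.

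Cald1 probe A_44_P276276 read -1.40, -2.43 and -2.46 in AACO hearts and -3.10, -3.23 and -3.39 in control hearts. It has 1 spot on each array, while the other Cald1 probes have 2 each. Which form of caldesmon each Cald1 probe reads was not looked up. The groups did not overlap, and the difference was 1.14 ± 0.29 (adjusted p = 0.0561 over all probes, limma). The scaling of arrays cancels in the difference between probes on the same array. A_44_P276276 minus A_64_P085846 was 1.38, 1.01 and 0.90 on AACO arrays and 0.10, -0.12 and 0.05 on control arrays, a shift of 1.08 in which the groups did not overlap. A_64_P085846 minus A_64_P085851 shifted by 0.07, and there the groups overlapped. The pairs of probes were chosen after their values were seen, and no test was made of them.

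**Figure D2:**
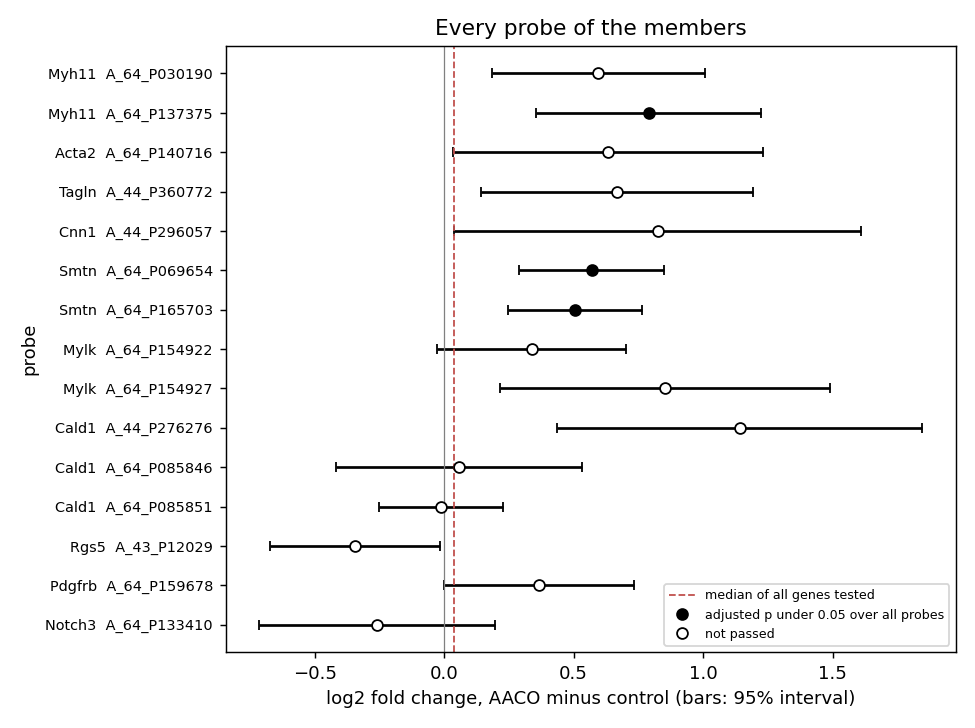
Log2 fold change (AACO minus control) of each of the 15 probes with its 95% interval, on a horizontal axis in log2 units. Filled points are the 3 probes, 2 of Smtn and 1 of Myh11, with an adjusted p under 0.05 over all probes, and the dashed line marks the median of all genes tested, 0.04.

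The 3 mural members did not go one way, and none passed the test. Rgs5 encodes a regulator of G-protein signalling that is abundant in pericytes. Its level was 0.41, 0.28 and 0.61 in AACO hearts and 0.61, 0.77 and 0.95 in control hearts. The groups did not overlap, but AACO replicate 3 and control replicate 1 read almost the same. The difference was -0.34 ± 0.14 (adjusted p = 0.147, limma).

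Pdgfrb encodes the PDGF receptor of mural cells and fibroblasts. Its level was 0.63, 0.23 and 0.23 in AACO hearts and -0.06, -0.13 and 0.17 in control hearts, with no overlap. The difference was 0.37 ± 0.15 (adjusted p = 0.160, limma), and it was 0.23 without AACO replicate 1. Notch3, the Notch receptor of vascular smooth muscle, read -3.10, -3.18 and -2.84 in AACO hearts and -3.14, -2.71 and -2.49 in control hearts. These groups overlapped, and the difference was -0.26 ± 0.19 (adjusted p = 0.393, limma). It was -0.44 without control replicate 1 and -0.12 without control replicate 3.

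In all, 6 members were higher in every AACO array than in any control array (Myh11, Acta2, Tagln, Cnn1, Smtn and Pdgfrb), and 1 was lower (Rgs5). Of all genes tested, 21.5% were higher and 15.9% lower in this way. With the percentile over averaged probes, 4 members were higher and 1 lower. With no scaling of the arrays, where the median of all genes was 0.52, Cald1, Rgs5 and Notch3 turned to 0.48, 0.14 and 0.23 and the median of the contractile members was 1.08.

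**Figure D3:**
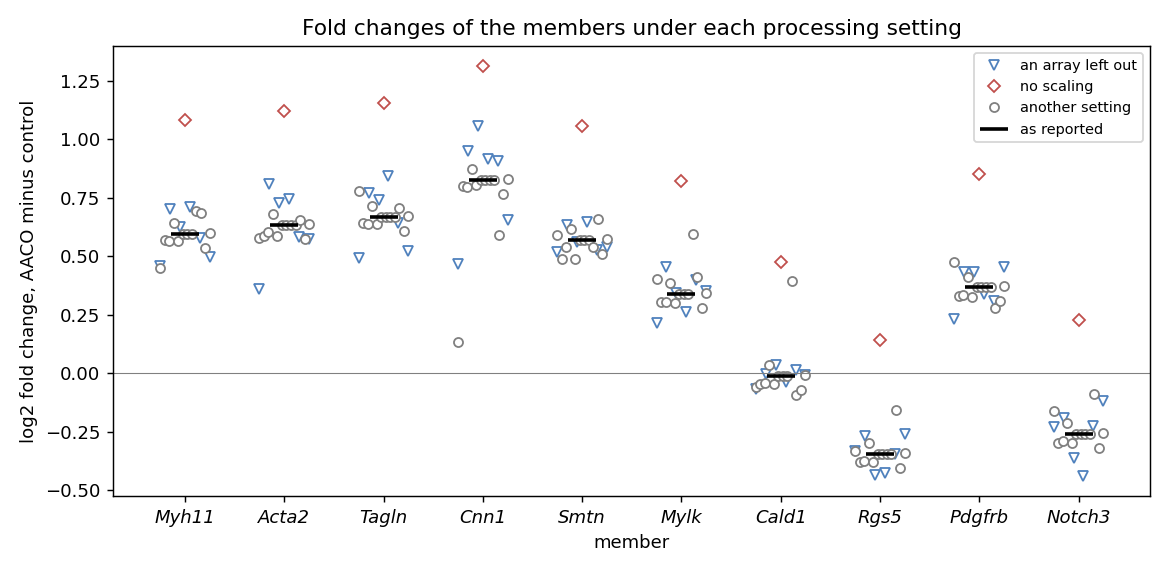
Log2 fold change (AACO minus control, vertical axis) of each member as reported (black bar), with 1 array left out, with no scaling and under the other settings. Values with no scaling lie highest for every member, and Cald1, Rgs5 and Notch3 are above 0 there.

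The AACO arrays were not alike in these genes. AACO replicate 1 was the highest AACO array for 7 of the 7 contractile members, with a median deviation from each gene's mean of 0.57. The medians of AACO replicates 2 and 3 were 0.08 and 0.16, and those of the control arrays were -0.10, -0.33 and -0.44. Atrial genes differed between the arrays as well. Of 6 atrial markers 5 were tested and 0 passed (Bmp10 was too dim), with a summed level of 6.89 to 7.72 in AACO hearts and 6.75 to 7.01 in control hearts. The brightest probe in that sum was Myl4, at a mean of 6.80 in each group. The atrial myosin light chain Myl7 read 4.83, 6.26 and -1.06 in AACO hearts and -2.31, -2.91 and -1.51 in control hearts. Sarcolipin (Sln), also atrial, read 1.39, 3.85 and -0.41 in AACO hearts and -1.71, -0.42 and -0.59 in control hearts. Both were high on AACO replicates 1 and 2, while AACO replicate 3 lay near the control arrays. The other 3 atrial markers tested, Dkk3, Tbx5 and Myl4, overlapped between the groups and differed by 0.46, 0.016 and -0.0020. AACO replicate 2 was highest in both atrial genes and was the lowest AACO array for 5 of the 7 contractile members. With the mean of Myl7 and Sln as a covariate, the Smtn difference was 0.66 with an adjusted p of 0.260, and limma called 0 of 17536 genes, 2276 of which had an unadjusted p under 0.05. That mean ran from -0.74 to 5.05 on AACO arrays and from -2.01 to -1.05 on control arrays, without overlap. The covariate is thus tied to the group, and the fit cannot fully separate them. With it the SE of Smtn was 0.18 in place of 0.12.

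**Figure D4:**
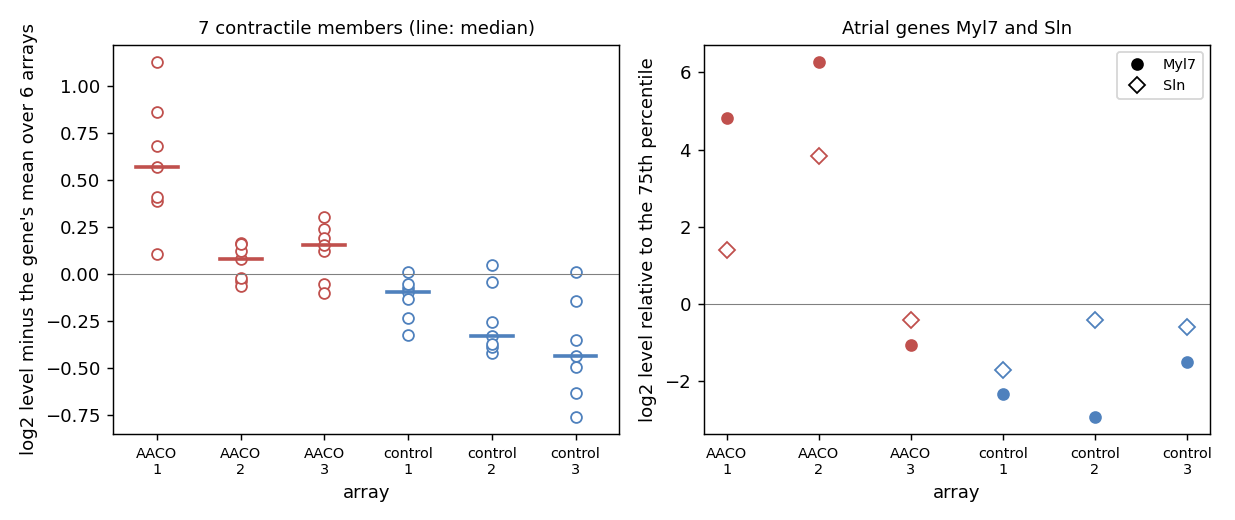
Left, the 7 contractile members on each array as log2 level minus the gene's mean over the 6 arrays, with a line at the median. Right, the log2 levels of the atrial genes Myl7 and Sln on the same arrays, high in AACO replicates 1 and 2 and low in AACO replicate 3.

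Markers of other cell types gave the following, where 6.32% of all genes tested rose and 4.94% fell. Of 8 macrophage markers 7 fell, with a summed level of 2.67 to 2.98 in AACO hearts and 3.80 to 4.25 in control hearts. The eighth, Csf1r, differed by 0.04, while its other probe fell by 1.07 (adjusted p = 0.0175 over all probes). Of 4 Schwann cell and nerve markers 1 rose (Sox10, 1.52, adjusted p = 0.0451, limma), with a summed level of 0.13 to 2.30 in AACO hearts and -1.94 to 0.21 in control hearts. Of 7 endothelial markers 0 passed, with a summed level of 4.37 to 4.49 in AACO hearts and 4.58 to 4.70 in control hearts. A further probe of the endothelial gene Vwf rose by 2.04 (adjusted p = 0.00598 over all probes), while its probe in this list differed by 0.13 and its remaining one by 0.06. Of 8 fibroblast markers 0 passed, with a summed level of 5.89 to 6.45 in AACO hearts and 6.29 to 6.63 in control hearts. The 10 cardiomyocyte markers were all detected, 0 passed, and their summed level was 10.06 to 10.25 in AACO hearts and 9.79 to 10.31 in control hearts. Of 4 blood markers 1 fell (Alas2, by 1.33, adjusted p = 0.0243, limma), with a summed level of 7.47 to 7.69 in AACO hearts and 7.46 to 7.85 in control hearts. That sum follows Hba-a1 and Hbb, at means of 7.09 and 5.92 over all arrays, against 0.51 for Alas2. Further probes of the haemoglobin genes Hba-a1 and Hbb fell by 1.13 and 1.30 (adjusted p = 0.0391 and 0.0297 over all probes), while their probes in the list differed by -0.24 and 0.05. Of 4 skeletal muscle markers tested 1 rose (Myh4, adjusted p = 0.0196, limma), whose control spots were all short of well above background. With control levels raised to the lowest signal flagged well above background on each array, its fold was 0.91, so that bound shows no rise. The summed level was 6.49 to 6.69 in AACO hearts and 6.42 to 6.66 in control hearts. It follows Ckm, at a mean of 6.55 over all arrays. Of the epicardial and the adipose markers 1 each was tested (Wt1 and Adipoq), and neither passed. The part of these in the contractile genes was not tested. All AACO arrays came from 1 slide and scan and all control arrays from another, so slide and group cannot be told apart.

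Other genes of the contractile apparatus and cytoskeleton of smooth muscle were read as a list of 20, of which 19 were tested. Of these 3 rose and 0 fell, and the median difference was 0.21. For this list and those below, the scale is all genes tested, of which 6.32% rose and 4.94% fell, with a median of 0.04. No list was tested as a set. Itga8, the integrin alpha-8 chain of contractile smooth muscle, rose by 1.11 (adjusted p = 0.0242). Its level was -1.96, -2.40 and -2.67 in AACO hearts and -3.61, -3.48 and -3.27 in control hearts. Tpm2, beta-tropomyosin, rose by 0.85 (adjusted p = 0.0351), while its other probe differed by 0.19 (adjusted p = 0.688 over all probes). Lmod1, leiomodin, which nucleates actin filaments in smooth muscle, rose by 0.60 (adjusted p = 0.0490). Tpm1, the brightest of those that did not pass, differed by 0.41 (adjusted p = 0.329). All these p-values are from limma.

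Of 14 pericyte and mural cell genes tested, 1 rose and 1 fell, and the median was -0.08. Gucy1a1, a subunit of the nitric oxide receptor guanylate cyclase, rose by 0.78 (adjusted p = 0.0271, limma). Higd1b, a pericyte gene, read -0.53, -0.33 and -0.17 in AACO hearts and 0.32, 0.39 and 0.20 in control hearts, and fell by 0.65 (adjusted p = 0.0290, limma). Abcc9, the potassium channel subunit and brightest of the rest, differed by -0.09 (adjusted p = 0.585, limma), and its other probes by 0.25 and 0.29. Steap4, a mural gene of this list, differed by -0.27 (adjusted p = 0.306, limma). A further probe of it differed by 0.08 (adjusted p = 0.758 over all probes), while its remaining one rose by 1.096 (adjusted p = 0.0134 over all probes). Steap4 was named after its values were seen. Of 12 transcription factors around myocardin and serum response factor, limma called 0. Without adjustment 2 of the 12 had a p under 0.05, against 30.8% of all genes. The brightest, Fhl2, differed by 0.45 (adjusted p = 0.0644, limma).

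Among 17 tested ligands, receptors and targets of PDGF and Notch signalling, 1 rose, 2 fell and the median was -0.01. Hey2, a Notch target in the vessel wall and the myocardium, read -0.85, -0.38 and -0.86 in AACO hearts and -2.01, -1.64 and -2.11 in control hearts. It rose by 1.22 (adjusted p = 0.0165, limma), and its other probe by 1.31 (adjusted p = 0.0203 over all probes). The receptor Notch1 fell by 0.53 (adjusted p = 0.0354, limma), while its other probe differed by 0.42 (adjusted p = 0.457 over all probes). The Notch ligand Dll1 fell by 0.91 (adjusted p = 0.0475, limma). Pdgfa, a PDGF ligand and the brightest of the rest, differed by 0.47 (adjusted p = 0.0953, limma), while its other probe rose by 0.64 (adjusted p = 0.0349 over all probes).

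Of 17 genes of contraction signalling, 2 rose, 0 fell and the median was 0.23. Adra1d, the alpha-1D adrenergic receptor of arterial smooth muscle, read -0.43, -0.31 and -1.05 in AACO hearts and -2.14, -2.86 and -3.56 in control hearts. It rose by 2.25 (adjusted p = 0.0207, limma). Ednra, the endothelin receptor through which smooth muscle contracts, rose by 1.17 (adjusted p = 0.0364, limma), while its other probe differed by 0.47 (adjusted p = 0.383 over all probes). All 10 companion genes that passed kept their direction as each array was left out. Without AACO replicate 1 or AACO replicate 2, 0 of the 10 passed, with adjusted p-values of 0.0547 to 0.150 and 0.0596 to 0.148. Without AACO replicate 3, 8 of the 10 passed. Without control replicate 1, 2 or 3, the numbers were 2, 3 and 1, and Adra1d was among them each time. Of all genes tested, 11.3% passed as reported. Without AACO replicate 1, 2 or 3 the share was 2.32%, 1.46% and 12.3%. Without control replicate 1, 2 or 3 it was 8.16%, 6.89% and 3.57%.

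**Figure D5:**
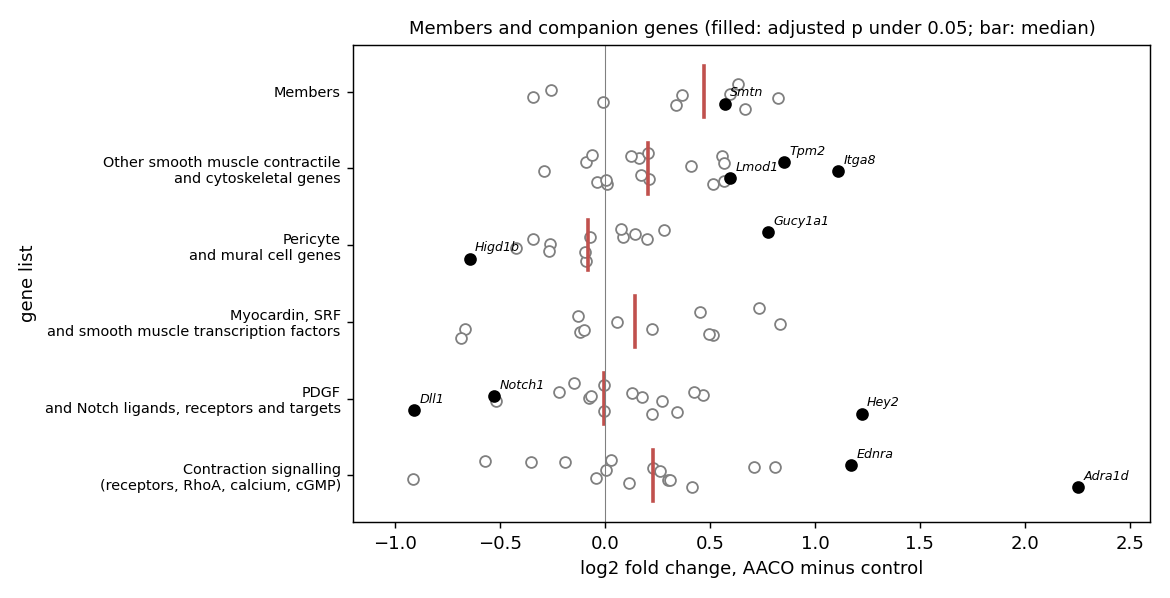
Log2 fold change (AACO minus control, horizontal axis) of the 10 members and of each companion list, with filled points for genes with an adjusted p under 0.05 and a bar at the median of the list. Companion genes that passed run from Dll1 at -0.91 to Adra1d at 2.25.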

How the data were processed

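RNA of 6 rat hearts, 3 AACO and 3 control, was read on single-colour Agilent arrays. Per the file headers, Feature Extraction 10.7.1.1 made the deposited intensity of each spot, corrected for background but left unscaled. Log2 values were also deposited as a series matrix, used only as an alternative, with column medians of 6.79. How they were centred is not given in the sources used here.

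Control spots and outlier spots were left out, spots of a probe were averaged as log2, and each array's 75th percentile was subtracted. Probes flagged well above background on 3 or more of the 6 arrays were kept. Genes were tested with limma 3.58.1 in R 4.3.3, after the method had been run on simulated data. All members and, from each companion list, up to 4 genes that passed and the brightest that did not are named, except 1 gene that is not reported here. Members and lists were chosen with earlier results of these data known.

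The percentile can be taken in more than one way, and 3 were run, with their results seen each time: over averaged probes, over spots without an outlier mark and over all non-control spots. The last was kept after the first had been seen, because it is the plain reading of the scaling step and because it gave the same numbers of called genes as an earlier analysis of these data. The choice favours higher values: over averaged probes the fold changes are 0.06 lower, 4 rather than 7 members have an unadjusted p under 0.05, and 4 rather than 6 are higher without overlap. Smtn was the only member called under all 3.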

Additional observations from a re-analysis of the deposited data

How the results depend on the processing

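No paired analysis was possible, because the numbers in the sample titles do not match between the groups and no pairing is stated. The replicate numbers used here only name the arrays. Over averaged probes, chosen after seeing the data, 876 genes rose and 1041 fell, and Smtn differed by 0.51 (adjusted p = 0.0428). Over unflagged spots, also chosen after seeing the data, these were 1110, 848 and 0.57 (adjusted p = 0.0304). As reported, 1108 rose and 867 fell. The rising share of calls was 56.1% as reported and 45.7% over averaged probes.

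With normexp background correction 1529 genes fell, 2 members rose and 5 companion genes fell, and the rising share was 33.6%. Those members were Smtn and Tagln (adjusted p = 0.0249 and 0.0488, limma), while 13.1% of all genes passed. With spike-in scaling 500 genes fell, 3 members rose and 0 companion genes fell, and the rising share was 68.9%. These members were Myh11, Smtn and Tagln (adjusted p = 0.0411, 0.0431 and 0.0471, limma), while 9.16% of all genes passed. With no scaling, 5493 genes rose and 232 fell, 7 members and 32 companion genes rose and 0 companion genes fell, while 32.6% of all genes passed. There the median of all genes was 0.52, that of the contractile members 1.08, and Cald1, Rgs5 and Notch3 turned to 0.48, 0.14 and 0.23. Cald1 also turned to 0.036 with spike-in scaling and 0.40 as the mean of its probes, and with 1 array left out it ran from -0.066 to 0.037, above 0 without AACO replicate 3 or control replicate 2. With no filter on dim probes 1401 genes and 1 companion gene fell, and the rising share was 35.6%. With the Myl7 and Sln covariate 0 genes, members or companion genes rose or fell in limma. The cause of these changes was not tested.

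With 1 array left out, 108 to 1225 genes rose and 148 to 937 fell, 0 to 1 members rose, 0 members fell, 0 to 8 companion genes rose and 0 to 3 fell. The other 6 contractile members had an adjusted p over 0.05 in each of these fits. The direction of every contractile member but Cald1, and of Pdgfrb, was positive under all 19 alternatives. A group of 3 arrays, each group on a slide of its own, limits what any of these values can show.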
